A study of Mus musculus with 6 samples.

Results

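Chemokines and chemokine receptors were followed in whole C0321 tumors from mice given sulindac sulfide (SS) or a control treatment. The members were all genes of the deposited table whose symbol begins with Ccl, Cxcl, Ccr, Cxcr or Xcr and a digit, or with Cx3c, or names 1 of the 4 atypical receptors Ackr1 to Ackr4. By this rule 37 of 13730 genes were members, 21 of them ligands and 16 receptors, held by 46 of 20648 transcripts. Of 61 protein-coding genes of the RefSeq annotation that match the rule, 24 have no row and were not analysed here, among them Cxcl1, Cxcl5, Cxcl10, Cxcl13, Ccl19, the Ccl21 genes, Ccl20, Cxcr3, Ccr6 and Ccr8.

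C0321 is a mouse line of triple-negative breast cancer that came from a mouse lacking Lfng (Lfng-/-) on the FVB background, so that control and SS tumors alike carry this loss in their cancer cells, while the host cells are those of the recipient. Each mouse, a female FVB animal aged 6 to 10 weeks, received 1000000 cells in equal volumes of Matrigel and PBS in the mammary fat pad. The 3 mice of the SS group bore palpable tumors when dosing began, and each received an oral dose of 60 mg/kg a day over 14 days. The other mice were controls, for which the series text names saline and the results of the paper name vehicle. The sample labels spell the drug as Sulindac Sulfate. All tumors arose from a single line, which limits them as a model, and RNA of the whole tumor was sequenced.

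Chemokines are small secreted proteins that bind receptors coupled to G proteins and guide leukocytes along gradients. They are grouped by the spacing of their first cysteines into CC, CXC, C and CX3C ligands, and most inflammatory ligands share receptors with others. Atypical receptors bind chemokines without the usual G protein signal, and many of them take up and remove the ligand. In breast tumors, chemokines from cancer cells, fibroblasts and macrophages are known for recruiting monocytes, T cells and neutrophils.

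The 6 tumors held between 8468948 and 24441553 estimated counts. Levels are given in CPM (counts per 1000000, with totals adjusted by TMM factors of 0.981 to 1.03). Before that adjustment, 3 counts equal 0.123 to 0.354 CPM. Genes without counts stay at 0 CPM. Tumors were as alike between the groups (mean correlation 0.948 of log CPM across genes) as within them (0.945). Markers of the labelled cancer were present, with Krt8 between 417 and 544 CPM and Met between 97.7 and 127 CPM. Epcam, an epithelial surface marker that claudin-low cells carry little of, stood between 0.041 and 2.98 CPM. Control tumor 1 stood apart in markers of other cells, with 37.7 CPM of the adipocyte gene Plin1 against 0 to 14.6 CPM in the other tumors, and 45.8 CPM of the T-cell gene Cd3e against 4.05 to 19.9 CPM. In whole tumors, fewer cells of a type and less RNA per cell cannot be told apart. The P values measure the spread between these mice only. Some genes that macrophages or all cells are known to carry in quantity were low in the table: Tyrobp stood between 0.338 and 1.81 CPM and B2m between 1.66 and 3.84 CPM, beside 321.3 to 447 CPM of Csf1r. The cause was not tested, and levels are therefore compared between genes only as this table gives them.

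Among the ligands in the table, Cxcl14 had the highest mean over all tumors, in CPM and per kilobase of transcript. Per kilobase, its range over the tumors overlapped that of Ccl5, so this rank does not hold for each tumor. Cxcl14 was the only member past adjustment with DESeq2, lower in all 3 SS tumors than in any control tumor. Cxcl9 and Ccl9 were higher in every SS tumor than in every control tumor, at low counts, and Ccr3 was the receptor with the smallest p. All other members overlapped between the groups. The promoters of Cxcl14 and Cxcl9 are shown because these 2 ligands, 1 lower and 1 higher after SS, both carry letters of the interferon-stimulated response element (GAAANNGAA), while that of Cxcl14 also carries the gamma-activated site (TTCNNNGAA). Both are RefSeq sequences on GRCm38.p6, read 5′ to 3′ over the 250 bases before the gene start, on the minus strand of chr13:56296552-56296801 for Cxcl14 and on the minus strand of chr5:92328080-92328329 for Cxcl9. Capitals mark the matched letters, which begin 191 and 172 bases before the start of Cxcl14 and 175 bases before the start of Cxcl9.
Cxcl14: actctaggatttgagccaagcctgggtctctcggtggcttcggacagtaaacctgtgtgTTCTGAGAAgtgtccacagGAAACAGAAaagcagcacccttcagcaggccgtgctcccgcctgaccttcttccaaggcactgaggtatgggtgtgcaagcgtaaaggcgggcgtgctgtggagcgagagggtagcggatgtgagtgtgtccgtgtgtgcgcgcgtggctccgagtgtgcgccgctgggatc
Cxcl9: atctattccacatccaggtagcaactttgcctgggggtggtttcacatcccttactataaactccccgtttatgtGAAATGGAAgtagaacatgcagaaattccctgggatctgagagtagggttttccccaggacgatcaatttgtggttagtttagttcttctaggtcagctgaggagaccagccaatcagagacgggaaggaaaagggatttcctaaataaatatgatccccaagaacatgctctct
The motifs were searched on both strands and do not overlap each other here. GAAANNGAA occurred in 8.56% of 32851 promoters of 300 bases, the 250 shown and the 50 that follow the start, and in those of 4 of the 26 members matched in the promoter table, which were Ccl3, Ccr2, Cxcl14 and Cxcl9. TTCNNNGAA reads the same on both strands and occurred in 8.3% of promoters and in those of 2 members, Ccl17 and Cxcl14. The kappa-B motif, the site of NF-kappa-B factors, was held by 4.51% of promoters and by those of 5 members, Ccl27a, Ccl9, Ccr3, Cxcl2 and Cxcl3. A match is a description of the letters and not a bound site.

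Most of the family was scarce in this table, where some genes known to be abundant were low as well. In 24 of 37 members the mean over the 6 tumors was under 1 CPM, against 3156 of 13730 genes in the table, and 7 members had a mean of 10 CPM or more. They included Cxcl14, Ackr3, Cxcl12, Cxcr4, Ccl5 and Ccr1. At least 1 tumor had no count at all for 15 members. Per kilobase of transcript, the scale on which genes can be ranked, Cxcl14 led with 60.6 CPM per kb over all tumors. Ackr3 followed with 32.0 and Ccl5 with 27.0 CPM per kb, and then Cxcr4 with 14.4 and Cxcl12 with 8.77 CPM per kb. Ccr1 stood at 5.06, Ccr2 at 2.97 and Ccr7 at 2.2 CPM per kb. Over the 6 tumors, the ranges of each gene named here and the next overlapped, so that the order of neighbours was not resolved.

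**Figure D1:**
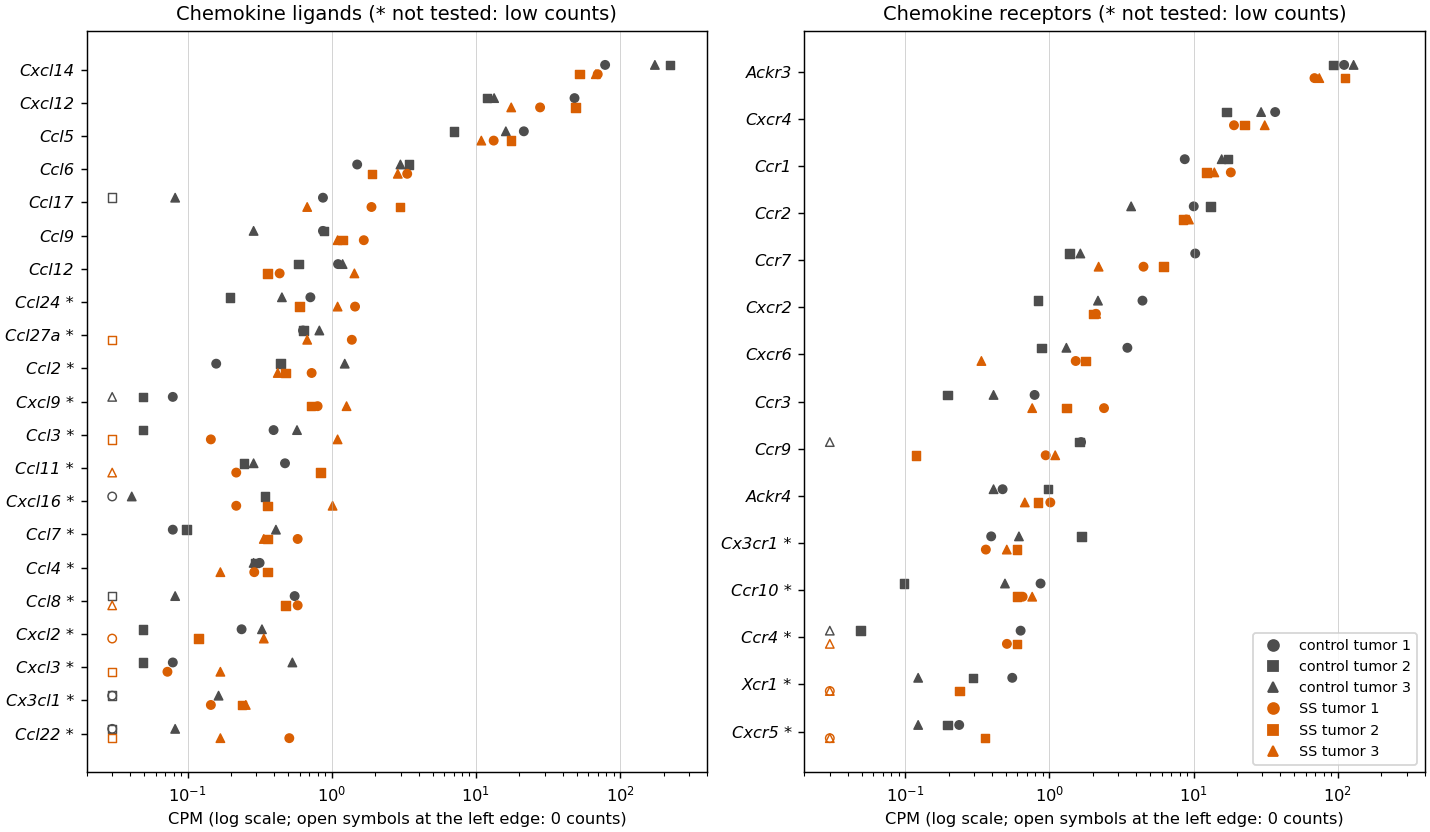
CPM of 36 members in each tumor on a log axis, ligands on the left and receptors on the right, with control tumors in grey and SS tumors in orange and circles, squares and triangles for tumors 1, 2 and 3. Open symbols at the left edge are tumors with 0 counts. Cxcl14 of the control tumors lies to the right of the SS tumors, and 24 have a mean under 1 CPM.

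The comparison of SS with control tumors asked which chemokine genes differed after 14 days of SS. No gene of the 10902 tested with edgeR passed an adjusted p of 0.05 (Benjamini-Hochberg, 0% called, smallest adjusted p 0.316), and 685 genes (6.28%) had an unadjusted p under 0.05. Of the members, 18 had enough counts to be tested, 7 ligands and 11 receptors, and 2 of the 18 were under 0.05 unadjusted. These were Cxcl14, lower in SS as were 3.16% of all genes tested, and Ccr3, higher in SS as were 3.12% of all genes tested. With DESeq2, 37 of 12638 genes (0.293%) passed adjustment, and Cxcl14 was the only member among them. The groups did not overlap in 3 of 37 members (Cxcl14, Ccl9 and Cxcl9), beside 12.1% of all genes in the table. A share of 3 in 37 is no larger than that background. The median log2 fold change was 0.03 over the tested ligands and -0.03 over the tested receptors, against -0.00 over all genes tested. With DESeq2, which took in all 21 ligands and 16 receptors, the medians were 0.29 and -0.12. With a tumor left out, they ran from -0.07 to 0.26 for ligands and from -0.26 to 0.09 for receptors.

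**Figure D2:**
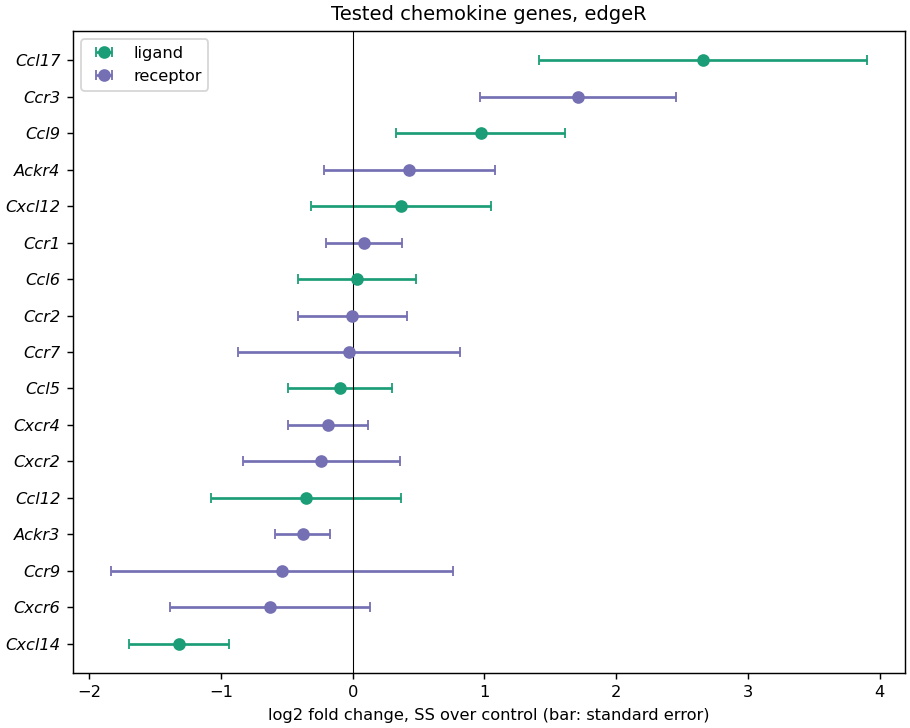
Log2 fold change, SS over control, of 17 tested members in edgeR, with standard errors as bars, ligands in green and receptors in purple. Cxcl14 at -1.32 is the lowest, Ccl17 at 2.66 and Ccr3 at 1.71 are the highest, and the median of all 18 tested is -0.01.

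Cxcl14 is a CXC chemokine of epithelia and fibroblasts, known for attracting monocytes and immature dendritic cells, for which no receptor is generally accepted. In the deposited table its 1 transcript lies on the minus strand of chromosome 13 at chr13:56288643-56296552. The control tumors had 78.6, 221 and 174 CPM, and the SS tumors had 69.9, 52.2 and 67.8 CPM. All 3 SS tumors lay below all 3 control tumors, but control tumor 1 was close to them, and the SS tumors were far more alike than the control tumors. The means were 158 ± 72.7 CPM in control and 63.3 ± 9.68 CPM in SS tumors (SD, n = 3 each), a log2 fold change of -1.32 ± 0.38 (SE), with a 95% interval of -2.24 to -0.40. The adjusted p was 0.781 with edgeR and 0.00988 with DESeq2. An exact two-sided permutation test gave p = 0.1, the smallest that 3 against 3 tumors allow. The call thus depends on the tool. Without control tumor 1, the adjusted p of edgeR was 0.0474 and the log2 fold change -1.64. Without control tumor 2 they were 0.928 and -0.998. These were the largest and the smallest difference with a tumor left out. Over all alternatives, edgeR and DESeq2 included, the adjusted p ran from 0.00988 to 0.995, and Cxcl14 was lower in SS tumors in each.

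By CPM, which is not scaled to transcript length, Cxcl14 was the larger part of the ligand total in 5 of 6 tumors. It made up 50.3, 89.4 and 81.6% of all ligand CPM among controls and 55.7, 40.2 and 62.0% after SS. The sum of the 21 ligands was 156, 248 and 213 CPM in control and 125, 130 and 109 CPM in SS tumors, without overlap. The other 20 ligands together gave 77.8, 26.3 and 39.3 CPM in control and 55.5, 77.7 and 41.5 CPM in SS tumors. These sums overlapped, so that the lower ligand total in CPM rested on Cxcl14. Per kilobase, the means of the SS tumors were 34.6 CPM per kb for Cxcl14, 26.1 for Ccl5 and 10.9 for Cxcl12. Cxcl14 was thus not the larger part of the SS mean on that scale. Of the 6 genes listed as markers of the C0321 cells, Krt18 and Met were lower in all SS tumors without overlap, beside 12.1% of all genes in either direction. Krt18, a keratin, differed by -0.50 on the log2 scale (adjusted p 0.632 with edgeR), and Met, a receptor kinase, by -0.22 (adjusted p 0.793 with edgeR). Vim, the vimentin of mesenchymal cells, was the most abundant of the 6, at 5868 to 8610 CPM, and overlapped between the groups, as did Krt8, Krt14 and Epcam. Summed markers of fibroblasts ran from 12007 to 18146 CPM in control and from 8773 to 17292 CPM in SS tumors, also with overlap, and were mostly Col1a1. Pdgfra, a receptor of fibroblasts, was at 9.95, 7.66 and 6.68 CPM in control and 2.97, 5.72 and 6.75 CPM in SS tumors, where SS tumor 3 overlapped (-0.65 on the log2 scale, adjusted p 0.813 with edgeR). The part of these cells in the level of Cxcl14 was not tested.

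**Figure D3:**
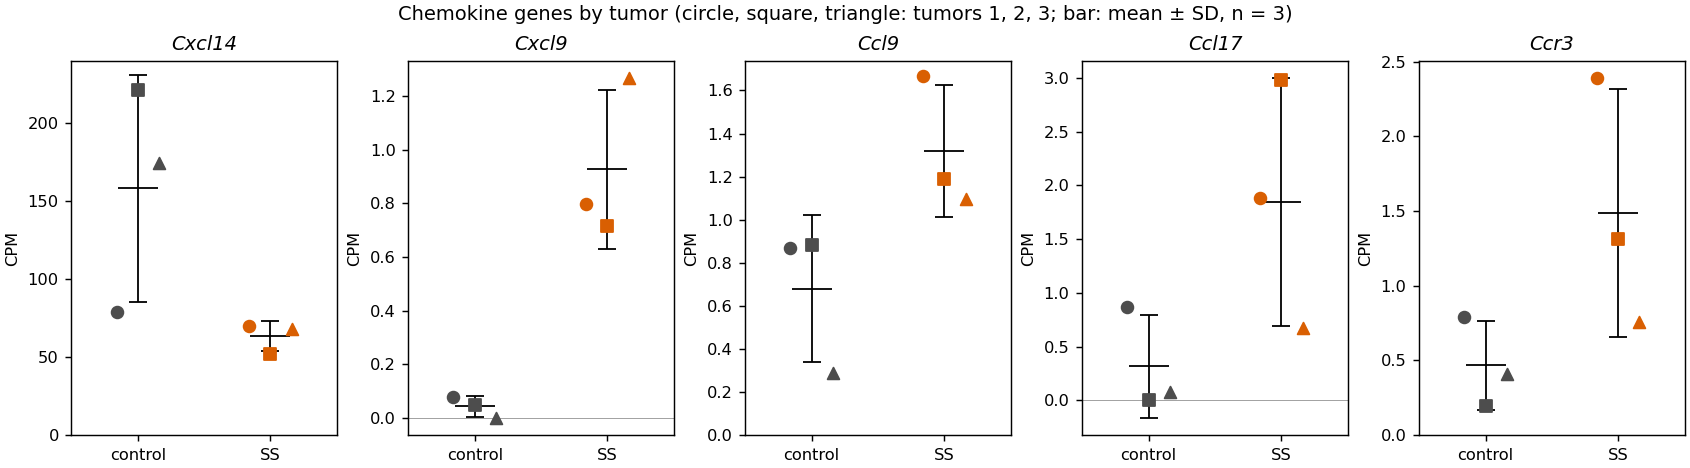
CPM by tumor of Cxcl14, Cxcl9, Ccl9, Ccl17 and Ccr3, each on its own axis, with control tumors in grey and SS tumors in orange, and the mean with its SD as a bar (n = 3). Cxcl14 is lower in every SS tumor, Cxcl9 and Ccl9 are higher in every SS tumor, and in Ccl17 and Ccr3 control tumor 1 overlaps SS tumor 3.

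Cxcl9, a ligand of Cxcr3 that interferon-gamma induces and that attracts activated T cells, had almost no counts in control tumors. It had 1, 1 and 0 counts there and 11, 6 and 15 counts in the SS tumors. Every SS tumor thus had more counts than any control tumor, although the SS libraries were on average smaller. Scaled to depth, this was 0.079, 0.049 and 0 CPM against 0.797, 0.715 and 1.27 CPM. The 2 counts of all control tumors against the 32 counts of all SS tumors gave a ratio of 27.0, with an exact interval of 6.89 to 233 that covers counting error only. Cxcl9 was under the filter on low counts and so not part of the edgeR test. Without the filter its adjusted p was 0.838 in edgeR, at a log2 fold change of 4.34, and DESeq2 gave an adjusted p of 0.202. Neither Cxcl10 nor Cxcr3 was analysed here, so the axis was seen through this ligand alone.

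Of the 6 genes of the interferon-gamma route to these ligands in the table, 4 were tested and none had an unadjusted p under 0.05, with a median log2 fold change of 0.04. Irf1, a transcription factor that interferon-gamma induces, stood at 54.7, 54.0 and 66.3 CPM in control and 65.5, 68.5 and 62.2 CPM in SS tumors. It overlapped between the groups. Among 5 dendritic-cell markers in the table, of which 3 were tested with a median log2 fold change of -0.03, Itgax alone did not overlap. This CD11c integrin of dendritic cells and some macrophages was at 66.8, 49.4 and 50.9 CPM in control and 173, 131 and 89.5 CPM in SS tumors (adjusted p 0.607 with edgeR and 0.00115 with DESeq2). Zbtb46, a factor of conventional dendritic cells, was at 1.5, 0.589 and 0.615 CPM against 0.507, 0.834 and 0.929 CPM, and Flt3, Xcr1 and Ccr7 also overlapped. The part of these cells in the level of Cxcl9 was not tested.

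The neutrophil-attracting CXC ligands Cxcl2 and Cxcl3 were low, with at most 0.533 CPM in any tumor. Their receptor Cxcr2, which recruits neutrophils, was at 4.42, 0.835 and 2.17 CPM in control and 2.10, 2.02 and 2.11 CPM in SS tumors. The SS tumors were nearly equal and lay inside the range of the control tumors. The summed neutrophil markers S100a9, Csf3r and Mpo were between 0.245 and 1.18 CPM, near 0 in all tumors. Cxcl16, the ligand of Cxcr6 on T cells, was between 0 and 1.01 CPM.

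Cxcl12, with its signaling receptor Cxcr4 and its scavenger Ackr3, formed the most abundant complete axis of the family. Cxcl12 is made by fibroblasts and other stroma and holds or draws cells with Cxcr4. Its level was 48.2, 11.9 and 13.4 CPM in control and 27.8, 49.2 and 17.6 CPM in SS tumors. Control tumor 1 and SS tumor 2 were the highest and the groups overlapped widely, with a log2 fold change of 0.37 ± 0.68 (SE). The value hung on single tumors, since it was 1.31 without control tumor 1 and turned to -0.10 without SS tumor 2. The same tumors had the highest summed markers of adipocytes and of endothelial cells, but not the highest level of each marker. Plin1, a protein of lipid droplets, was 37.7, 0.098 and 0 CPM in control and 8.05, 14.6 and 0 CPM in SS tumors. The 4 adipocyte markers Adipoq, Plin1, Fabp4 and Cidec summed to between 0.041 and 45.2 CPM in control and between 0.675 and 19.2 CPM in SS tumors, with Adipoq at or near 0 in all. The 4 endothelial markers Pecam1, Cdh5, Kdr and Tek summed to 68.1, 52.5 and 39.7 CPM in control and 45.8, 93.4 and 44.0 CPM in SS tumors, with Pecam1 at or near 0 in all. Tek, a receptor of endothelial cells, was at 23.0, 9.97 and 9.59 CPM in control and 11.5, 38.1 and 9.88 CPM in SS tumors. Kdr of SS tumor 2 (7.27 CPM) lay below that of control tumor 3 (7.50 CPM). Cdh5 of control tumor 1 (34.7 CPM) lay below that of control tumor 2 (35.5 CPM). Fabp4 of SS tumor 2 (3.45 CPM) lay below that of SS tumor 1 (3.70 CPM). The part of both cell types in the level of Cxcl12 was not tested.

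Ackr3, which removes Cxcl12 from the tissue, was the most abundant receptor. It stood at 111, 93.1 and 129 CPM in control and 68.9, 113 and 74.5 CPM in SS tumors. SS tumors 1 and 3 lay below all control tumors and SS tumor 2 lay among them. The log2 fold change was -0.38 ± 0.21 (SE), with a 95% interval of -0.86 to 0.10, and the adjusted p of edgeR was 0.816. Without SS tumor 2 the difference grew to -0.63 on the log2 scale, and without SS tumor 1 it shrank to -0.249. Over all alternatives the adjusted p ran from 0.75 to 0.996 in edgeR, DESeq2 and the t statistic. Cxcr4 was at 36.8, 16.9 and 29.4 CPM in control and 19.1, 22.6 and 31.1 CPM in SS tumors, and overlapped fully. The other atypical receptor in the table, Ackr4, which clears Ccl19 and Ccl21, was at most 1.01 CPM.

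**Figure D4:**
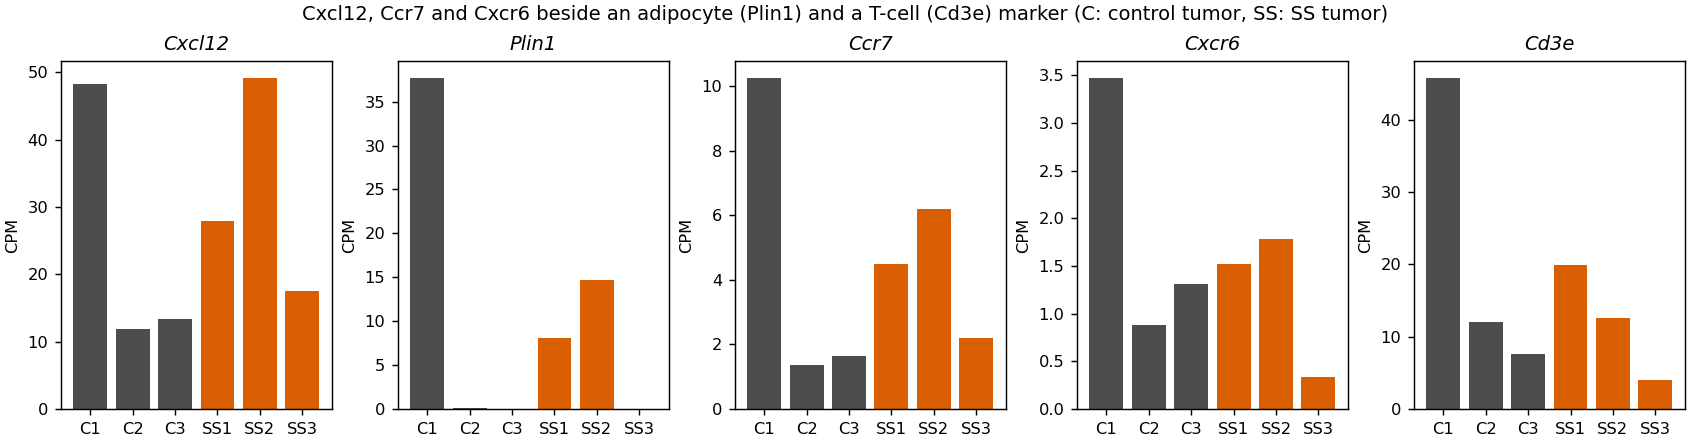
CPM by tumor of Cxcl12 beside the adipocyte gene Plin1, and of the receptors Ccr7 and Cxcr6 beside the T-cell gene Cd3e, with control tumors (C) in grey and SS tumors in orange. Control tumor 1 has the highest bar of Plin1, Ccr7, Cxcr6 and Cd3e, and with SS tumor 2 the highest bars of Cxcl12.

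The list of 12 inflammatory CC ligands and receptors included 10 in the table, of which 6 were tested and Ccr3 alone had an unadjusted p under 0.05 in edgeR, beside 6.28% of all genes. Ccl5, made by T cells, macrophages and some cancer cells and bound by Ccr1 and Ccr3 among other receptors, was the most abundant CC ligand. It was at 21.5, 7.02 and 16.1 CPM in control and 13.3, 17.5 and 10.9 CPM in SS tumors. All SS values lay within the control range, and the log2 fold change was -0.10. Ccl6, a ligand of Ccr1 found in rodents, was at 1.5, 3.44 and 2.99 CPM in control and 3.33, 1.91 and 2.87 CPM in SS tumors, again with full overlap. Its neighbour Ccl9, another rodent ligand of Ccr1 that macrophages make, was at 0.869, 0.884 and 0.287 CPM in control and 1.67, 1.19 and 1.10 CPM in SS tumors. Every SS tumor was above every control tumor, but on 7 to 23 counts a tumor. The log2 fold change was 0.97 ± 0.64 (SE), and the adjusted p of edgeR was 0.866. With a tumor left out it ran from 0.591 to 1.22 on the log2 scale. With quantile normalization it was 0.494, where the t statistic gave an unadjusted p of 0.0371 and an adjusted p of 0.709.

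None of the receptors of these ligands passed adjustment with edgeR or DESeq2. Ccr1, a receptor of monocytes and macrophages, was at 8.69, 17.4 and 15.7 CPM in control and 18.1, 12.3 and 13.9 CPM in SS tumors. Its log2 fold change was 0.09. Ccr3, the eotaxin receptor known from eosinophils, was at 0.790, 0.196 and 0.410 CPM in control and 2.39, 1.31 and 0.760 CPM in SS tumors, on 4 to 33 counts a tumor. SS tumor 3 lay just under control tumor 1, and the other SS tumors lay above all controls. The log2 fold change was 1.71 ± 0.74 (SE). Its adjusted p was 0.781 with edgeR and 0.787 with DESeq2. With a tumor left out, the log2 fold change of Ccr3 ran from 1.16 without SS tumor 1 to 2.26 without control tumor 1. With quantile normalization it was 0.777. The ligands of Ccr3, the eotaxins Ccl11 and Ccl24, were at most 0.834 and 1.45 CPM and overlapped between the groups. Summed markers of macrophages, which were between 715 and 850 CPM in control and between 756 and 939 CPM in SS tumors, also overlapped.

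The monocyte axis of Ccr2 and its ligands overlapped between the groups throughout. Ccr2, which brings monocytes out of the marrow and into tumors, was at 10.0, 13.1 and 3.69 CPM in control and 8.92, 8.46 and 9.29 CPM in SS tumors. The SS tumors were nearly equal, and the log2 fold change was -0.00. Of its ligands, Ccl12 was between 0.357 and 1.44 CPM and Ccl2, Ccl7 and Ccl8 were between 0 and 1.23 CPM. The 5 genes of the ligand cluster near 82 Mb of chromosome 11, Ccl2, Ccl7, Ccl8, Ccl11 and Ccl12, summed to 2.37, 1.37 and 3.20 CPM in control and 2.54, 2.5 and 2.19 CPM in SS tumors. The genes Ccl3 and Ccl4, made by macrophages and T cells, were at most 1.10 and 0.357 CPM.

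Ccl17, a ligand of Ccr4 that dendritic cells make and that draws regulatory and type 2 helper T cells, had 11, 0 and 2 counts in control and 26, 25 and 8 counts in SS tumors. In CPM this was 0.869, 0 and 0.082 against 1.88, 2.98 and 0.675. Control tumor 1 was above SS tumor 3, so the groups overlapped. The log2 fold change was 2.66 ± 1.24 (SE), and its adjusted p with edgeR was 0.793. With a tumor left out it ran from 2 to 5.16, the highest without control tumor 1 (adjusted p 0.432 with edgeR), and it was 1.07 with quantile normalization. The 3 ligands that lie together on chromosome 8, Ccl22, Cx3cl1 and Ccl17, summed to 0.869, 0 and 0.328 CPM in control and 2.54, 3.22 and 1.10 CPM in SS tumors, without overlap. Each of the 3 genes alone overlapped between the groups. The sum of SS tumor 3 lay above that of control tumor 1 only through 2 counts of Ccl22 and 3 counts of Cx3cl1. Ccl22, the other ligand of Ccr4, was at most 0.507 CPM and Cx3cl1, the fractalkine of endothelium, at most 0.253 CPM. Ccr4 itself was between 0 and 0.632 CPM in both groups.

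Ccr7, the receptor that leads mature dendritic cells and naive T cells to lymph nodes, was at 10.3, 1.37 and 1.64 CPM in control and 4.49, 6.19 and 2.19 CPM in SS tumors. Control tumor 1 was the highest and the other controls were the lowest. Cxcr6 of effector T cells was at 3.47, 0.884 and 1.31 CPM in control and 1.52, 1.79 and 0.338 CPM in SS tumors, with control tumor 1 again the highest. Cd3e, of the T-cell receptor complex, was at 45.8, 12 and 7.62 CPM in control and 19.9, 12.6 and 4.05 CPM in SS tumors. Of the 6 T-cell markers only Cd3e and Cd4 were in the table, and together they ran from 8.03 to 47.8 CPM in control and from 4.31 to 20.7 CPM in SS tumors. Their part in both receptors was not tested. Without control tumor 1, 878 of 11228 genes had an unadjusted p under 0.05 in edgeR. Ccr7 (1.5 on the log2 scale), Cxcl12 and Ccl17 were among them, higher in SS, as they were not with all 6 tumors, and none of these 3 passed adjustment.

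The remaining receptors were low. Ccr9, which homes T cells to the gut, was between 0 and 1.66 CPM, with 0 to 33 counts a tumor. Cx3cr1 of patrolling monocytes, Ccr10 of skin-homing T cells, Xcr1 of cross-presenting dendritic cells and Cxcr5 of B cells were between 0 and 1.67 CPM, with overlap in each. Ccl27a, a skin chemokine, was between 0 and 1.38 CPM. It has near-identical copies, so its counts are uncertain. The positions of 12 members also overlap another RefSeq gene, and whether the counting used the strand is not stated, so that reads of the 2 genes may not be told apart. These are Ccl3, Ccl5, Ccl6, Ccl27a, Cx3cl1, Cxcl16, Ackr4, Ccr9, Ccr10, Cx3cr1, Cxcr5 and Cxcr6.

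Downstream of the receptors, 33 of 35 listed genes of chemokine signaling were tested, with a median log2 fold change of 0.04. Of these 2 were higher at an unadjusted p under 0.05 and 0 were lower, a share near the 6.28% of all genes. Among the 35 listed genes in the table, 4 were higher and 2 lower without overlap, beside 12.1% of all genes in either direction. Prex1, an exchange factor that activates Rac downstream of G proteins, was at 110, 100 and 109 CPM in control and 144, 130 and 139 CPM in SS tumors, without overlap. Tiam1, another exchange factor for Rac, was at 39.3, 16.7 and 24.2 CPM in control and 40.8, 54.1 and 38.0 CPM in SS tumors, where control tumor 1 overlapped. Their log2 fold changes were 0.37 and 0.73, with adjusted p of 0.684 and 0.781 in edgeR. Gnai3 and Gnb2, subunits of G proteins, were the 2 that were lower without overlap, by -0.15 each on the log2 scale. The other listed subunits overlapped or were higher without overlap. Pf4 and Cmklr1, a platelet chemokine and the chemerin receptor that the symbol rule leaves out, were tested and overlapped between the groups.

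The table splits 7 members into several RefSeq transcripts by estimated counts, and those of Cxcl12, Cxcr4, Ccl24 and Ccl27a varied in their split between tumors. Cxcl12 was held mainly by NM_001012477, with NM_021704, the transcript with the nearer 3′ end, at 27.6, 36.2 and 12.8% of its counts in control and 20, 61.3 and 49.1% in SS tumors. SS tumors 2 and 3 had the highest shares and SS tumor 1 lay among the controls. NM_009911 of Cxcr4 took 74.0, 52.0 and 91.1% in control and 34.5, 46.0 and 72.8% in SS tumors, with overlap. Ccl24 changed its main transcript: NM_019577 took 2.75, 2.75 and 29.4% in control and 86.2, 100 and 99.7% in SS tumors. The groups did not overlap in this share, which rests on totals of at most 20 counts a tumor. Ccr7 kept a share of 77.8% for NM_001301713 in all tumors, a constant split between transcripts of equal length. NM_001164044 of Ccl27a took from 0 to 100% of its counts, with overlap between the groups and on at most 20 counts a tumor. These shares are estimates and were not tested.

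**Figure D5:**
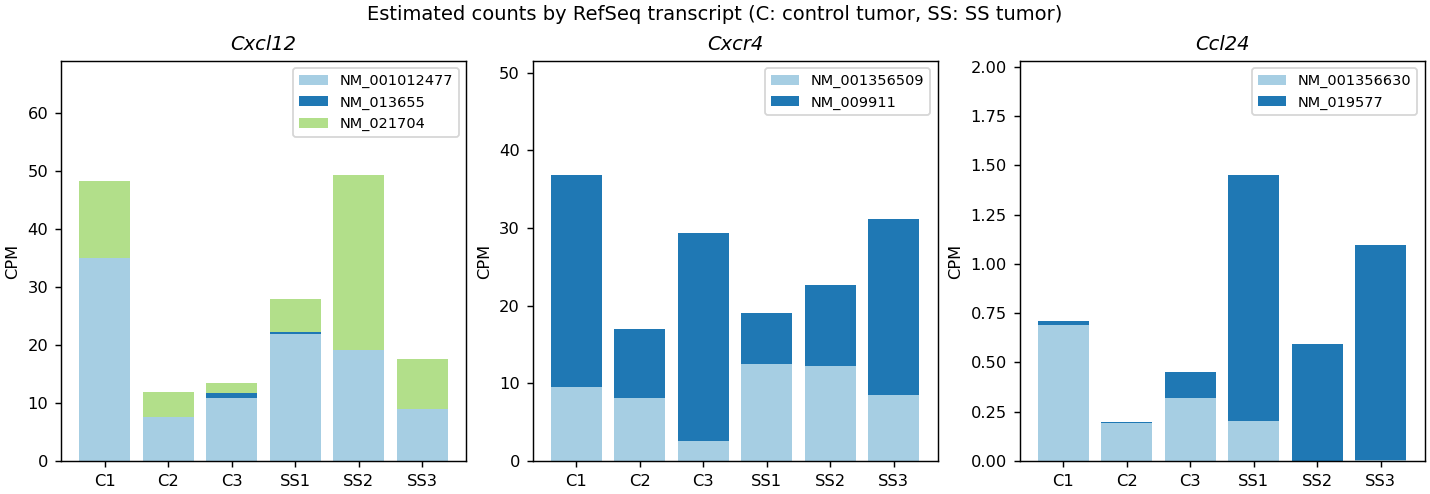
CPM by RefSeq transcript of Cxcl12, Cxcr4 and Ccl24, stacked for each control tumor (C) and SS tumor. NM_021704 makes up most of Cxcl12 in SS tumor 2, and NM_019577 makes up nearly all of Ccl24 in the SS tumors but little of it in the control tumors.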

How the data were processed

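Poly-A RNA of 6 tumors, 3 control and 3 SS, was measured by stranded paired-end sequencing. The values the authors deposited are estimated counts, not normalized, for each RefSeq transcript, with its position and symbol. Per the submitters' processing notes, CASAVA 1.8.1, Bowtie2 2.2.5, STAR 2.5.3a and mm10 were used, with no roles stated, and the counting tool is not given in the sources used here. The paper's methods state that entries of low expression were removed, and name quantile normalization and a t statistic. The lowest sum of a transcript over the tumors was about 10 counts, so that absent genes cannot be read as 0.

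Counts were summed by symbol and rounded, and 21 symbols turned into dates by a spreadsheet were restored. edgeR 4.0.16 in R 4.3.3 (TMM scaling, filterByExpr, quasi-likelihood F test) was run on all genes, with Benjamini-Hochberg adjustment over those tested. The SE was obtained as the log2 fold change over the root of F, and 95% intervals used the t quantile at the degrees of freedom of the fit. DESeq2 1.42.0, other scalings, filters, thinning, a replicate block, quantile normalization with a t statistic and leaving out each tumor were the alternatives. The scripts were tested on simulated data. Values per tumor are given for Cxcl14, the 5 most abundant ligands and receptors, members at an unadjusted p under 0.05 and members whose groups do not overlap; a few others were added after their values were seen. The members and lists were chosen with earlier results of these data known. Numbers come from the labels but mark different mice, and same-numbered tumors deviated together with correlations of 0.116, 0.0205 and 0.0767, not all above 0.1. Positions are those of the table, on GRCm38. Protein sequences were not used here, and 1 member and 1 listed gene that entered the fits and counts are not reported here. With 8468948 counts in the smallest library, members under 1 CPM rest on few counts.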

Additional observations from a re-analysis of the deposited data

How the results depend on the processing

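The number of genes past adjustment with all tumors was 0 in edgeR under its other settings and with quantile normalization and a t statistic, 37 with DESeq2, and 0 to 2 when a tumor was left out, with 2 without control tumor 1. Of 7 ligands tested, 1 had an unadjusted p under 0.05 (all genes 685 of 10902), against 3 of 21 with DESeq2 (Cxcl14, Cxcl9 and Ccl17; all genes 836 of 13703) and 2 of 21 without the filter on low counts (Cxcl14 and Cxcl9; all genes 796 of 13730). With a tumor left out it was 1 to 4, with 4 of 11 without control tumor 1 (all genes 878 of 11228) and 2 of 11 without SS tumor 2 (all genes 656 of 11456). Of 11 receptors tested, 1 (Ccr3) was under 0.05, against 0 with DESeq2, with quantile normalization and a t statistic, without the filter, at a mean CPM of at least 1, with the replicate block and after thinning, and 0 to 2 with a tumor left out. Cxcl14 was lower under all alternatives and was above 0.05 only with quantile normalization and a t statistic, at a log2 fold change of -1.18.

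Log2 fold changes near 0 changed sign. Ccl5 was 0.0103 and Ccr2 0.12 with quantile normalization, Ccl6 was -0.11 after thinning, and with the replicate block Ccr2 was 0.16. With a tumor left out the log2 fold changes ran from -0.10 to 1.31 for Cxcl12, from -0.44 to 0.26 for Ccl5, from -0.24 to 0.26 for Ccl6, from -0.445 to 0.0665 for Cxcr4, from -0.16 to 0.28 for Ccr1 and from -0.38 to 0.39 for Ccr2. Under the replicate block, 670 genes had an unadjusted p under 0.05, and 0 passed adjustment. The causes were not tested. With 3 tumors a group, the exact permutation test cannot go below 0.1, and 19 members had too few counts for the test.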
